A study of Mus musculus with 4 samples.

Results

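The mitosis and spindle genes are a set of 40 genes named by symbol: cyclins and kinases of the G2 and M phases, proteins of the spindle, the kinetochore and the spindle checkpoint, and proteins of cytokinesis and mitotic exit. The rule takes them by symbol and uses no measured value, though the set was drawn up with earlier results of these data known. Of the 40, 39 were matched to a probe set that names a single gene, and Ccnb1, which encodes cyclin B1, was not. The 39 genes have 85 of the 34945 probe sets that name 1 gene, and they are 39 of the 18193 genes so named.

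RNA came from mouse embryonic fibroblasts (MEFs), primary connective tissue cells grown out of embryos, of C57BL/6 mice that were wild type or FAN-/-. FAN is the product of Nsmaf and couples the TNF receptor TNFR1 to neutral sphingomyelinase. Cells of all groups were deprived of serum: untreated cells had medium without serum for 24 h, and treated cells had it for 8 h and then received TNF at 50 ng/ml for 16 h. The 4 conditions were wild type untreated, wild type with TNF, FAN-/- untreated and FAN-/- with TNF, with 1 Affymetrix whole-genome array each, and groups follow the sample titles. The genotype entry of 2 of the 4 samples goes against the title: wild type with TNF is entered as knockout, and untreated knockout as wild type. The labels do not give the embryos, passages or dishes behind each array. Genotype and cell preparation therefore cannot be told apart, and every p-value speaks of these arrays only.

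Cells that commit to division switch on a large set of genes late in the cycle, in G2 and mitosis. Cyclins A and B with the kinase Cdk1 drive entry, kinetochores tie chromosomes to the spindle, the spindle checkpoint holds anaphase until all are attached, and the anaphase-promoting complex then marks securin and cyclin B for destruction. Many of these genes share promoter elements: the cell cycle genes homology region (CHR), read by the MuvB complexes that repress the genes in resting cells and activate them with B-Myb and Foxm1, and CCAAT boxes bound by NF-Y. In fibroblasts, removal of serum is the classical way to bring cells to rest.

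Promoters are shown first because the members were picked by function, and their start sites show what else they have in common. RefSeq promoter windows (assembly GRCm38.p6, 250 bases before to 50 bases after the start of transcription) were matched for 34 of the 40 members, as 36 windows, since Ect2 and Prc1 each have 2 overlapping ones. The windows were searched on both strands for the CHR core TTTGAA, which reads TTCAAA when it lies on the other strand, and for the NF-Y box CCAAT, which then reads ATTGG, and no match of one overlapped a match of the other. The 4 windows shown are those with both motifs whose genes were lowest with TNF in wild-type cells relative to untreated ones. They are Cenpf at chr1:189688037-189688336, Mki67 at chr7:135716330-135716629, Hmmr at chr11:40733388-40733687 and Cdc20 at chr4:118437294-118437593, all on the minus strand and written 5′ to 3′ along the gene, with the motifs in capitals.
Cenpf: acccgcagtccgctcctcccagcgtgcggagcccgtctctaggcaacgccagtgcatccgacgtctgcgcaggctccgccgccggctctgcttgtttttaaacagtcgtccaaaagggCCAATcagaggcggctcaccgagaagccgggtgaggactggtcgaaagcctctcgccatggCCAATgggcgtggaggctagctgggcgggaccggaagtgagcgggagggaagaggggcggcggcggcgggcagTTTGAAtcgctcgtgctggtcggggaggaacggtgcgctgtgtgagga
Mki67: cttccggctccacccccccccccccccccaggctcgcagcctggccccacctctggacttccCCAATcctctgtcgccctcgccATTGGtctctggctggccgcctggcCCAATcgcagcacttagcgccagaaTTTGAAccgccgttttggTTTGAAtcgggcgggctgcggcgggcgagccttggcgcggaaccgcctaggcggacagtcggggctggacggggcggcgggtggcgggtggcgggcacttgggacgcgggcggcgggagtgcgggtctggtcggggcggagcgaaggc
Hmmr: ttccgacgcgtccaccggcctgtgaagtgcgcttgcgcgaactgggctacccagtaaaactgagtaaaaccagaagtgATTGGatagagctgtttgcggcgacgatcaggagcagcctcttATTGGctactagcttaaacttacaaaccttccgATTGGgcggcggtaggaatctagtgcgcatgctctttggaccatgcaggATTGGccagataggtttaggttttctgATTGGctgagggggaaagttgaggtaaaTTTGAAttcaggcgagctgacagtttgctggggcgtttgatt
Cdc20: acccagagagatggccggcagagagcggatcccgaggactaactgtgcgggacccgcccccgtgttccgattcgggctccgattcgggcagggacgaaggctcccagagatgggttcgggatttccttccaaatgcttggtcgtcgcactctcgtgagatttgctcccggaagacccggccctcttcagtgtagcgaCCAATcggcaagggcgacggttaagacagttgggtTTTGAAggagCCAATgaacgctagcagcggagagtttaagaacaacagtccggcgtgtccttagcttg

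The Cenpf window has 2 CCAAT boxes upstream, whose first bases lie at -132 and -71 from the start, and 1 CHR core at 3 (the start itself is 1). In the Hmmr window 5 CCAAT boxes, all on the other strand, run from -172 to -20, with 1 CHR core at 9. Both windows thus have the boxes upstream and the CHR core just past the start. The Cdc20 window has its CHR core at -18 between boxes at -53 and -8. The Mki67 window differs, with 2 CHR cores at -116 and -98 and 3 boxes farther upstream, between -188 and -141.

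Over the whole window, 69.4% of member windows held a CHR core against 17.9% of all 32851 windows searched, and 75.0% held a CCAAT box against 37.4%. Both motifs stood in 61.1% of member windows and in 6.95% of all windows. The motifs had preferred places. A CHR core began in the 25 bases from the start onward in 27.8% of member windows against 1.31% of all, and a CCAAT box began in the 25-base bin from -75 in 33.3% against 6.99%. Within the 100 bases before the start, CHR cores were present in 22.2% of member windows and 5.77% of all, and CCAAT boxes in 69.4% and 18.9%. These are counts of letters, not of bound sites.

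**Figure D1:**
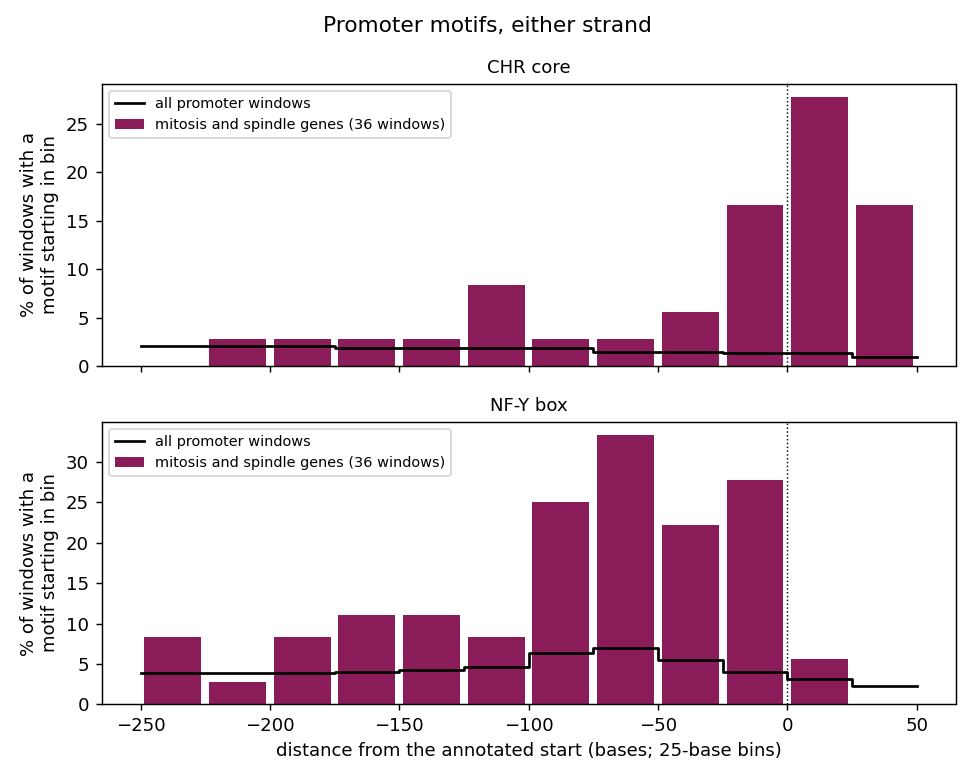
Share of promoter windows, in percent, with a CHR core (top) or a CCAAT box (bottom) beginning in each 25-base bin, against distance from the start of transcription in bases. Bars are the 36 member windows and the line is all 32851 windows searched. Member windows peak just past the start for the CHR core (27.8%) and upstream of the start for the CCAAT box (33.3% in the bin from -75).

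The deposited values are on the log2 scale and ran from 2.79 to 14.40, with array medians between 6.21 and 6.30. Nsmaf, the targeted gene, measured 8.95 and 8.55 on the untreated and TNF-treated wild-type arrays and 7.91 and 7.48 on the knockout arrays, which goes with the titles. The genotype difference of Nsmaf was -1.06 ± 0.11 (SE; limma, adjusted p = 0.019). All 5 TNF response genes checked (Ccl2, Icam1, Nfkbia, Tnfaip3 and Vcam1) rose with TNF in limma. Of the fibroblast markers 10 of 10 lay above the floor on all arrays, which goes with the label, but so did 10985 of all 18193 genes. Macrophage markers were above it on all arrays for 4 of 9 (Csf1r, Lyz2, Cd14 and Fcgr1), with Ptprc, Cd68, Adgre1, Itgam and Aif1 under it on all arrays. For endothelial markers 2 of 6 were above it (Kdr and Tek), with Pecam1, Cdh5, Tie1 and Emcn under it. For epithelial markers 3 of 6 were above it (Epcam, Krt8 and Krt19), with Cdh1, Krt18 and Cldn7 under it. The markers alone therefore do not settle whether other cells were present. The floor, log2 6.27 or a signal of 77.0, is the 50th percentile of all values. Differences were taken after raising lower values to it, unless they are called deposited, and a fold with 1 side at the floor is given as "at least".

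Across the set, the mitotic genes had 1 order on the 4 arrays: highest in untreated wild-type cells, lower in wild-type cells with TNF, and lowest in both knockout arrays. Of the 39 members, 33 had the deposited value of the untreated wild-type array above that of the TNF-treated wild-type array and this above both knockout arrays, against 12.9% of all 18193 genes. Both knockout arrays were below both wild-type arrays for 34 of 39 members, against 19.7% of all genes (24% of the genes above the floor on at least 1 array). Of these 34 members, 14 were above the floor on all 4 arrays and 5 on none, and values under the floor have no reliable order. The 5 exceptions were Foxm1, Kif2c, Kif4, Tpx2 and Pttg1. In bulk RNA, fewer cells in G2 and mitosis and less RNA of these genes per cell cannot be told apart.

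**Figure D2:**
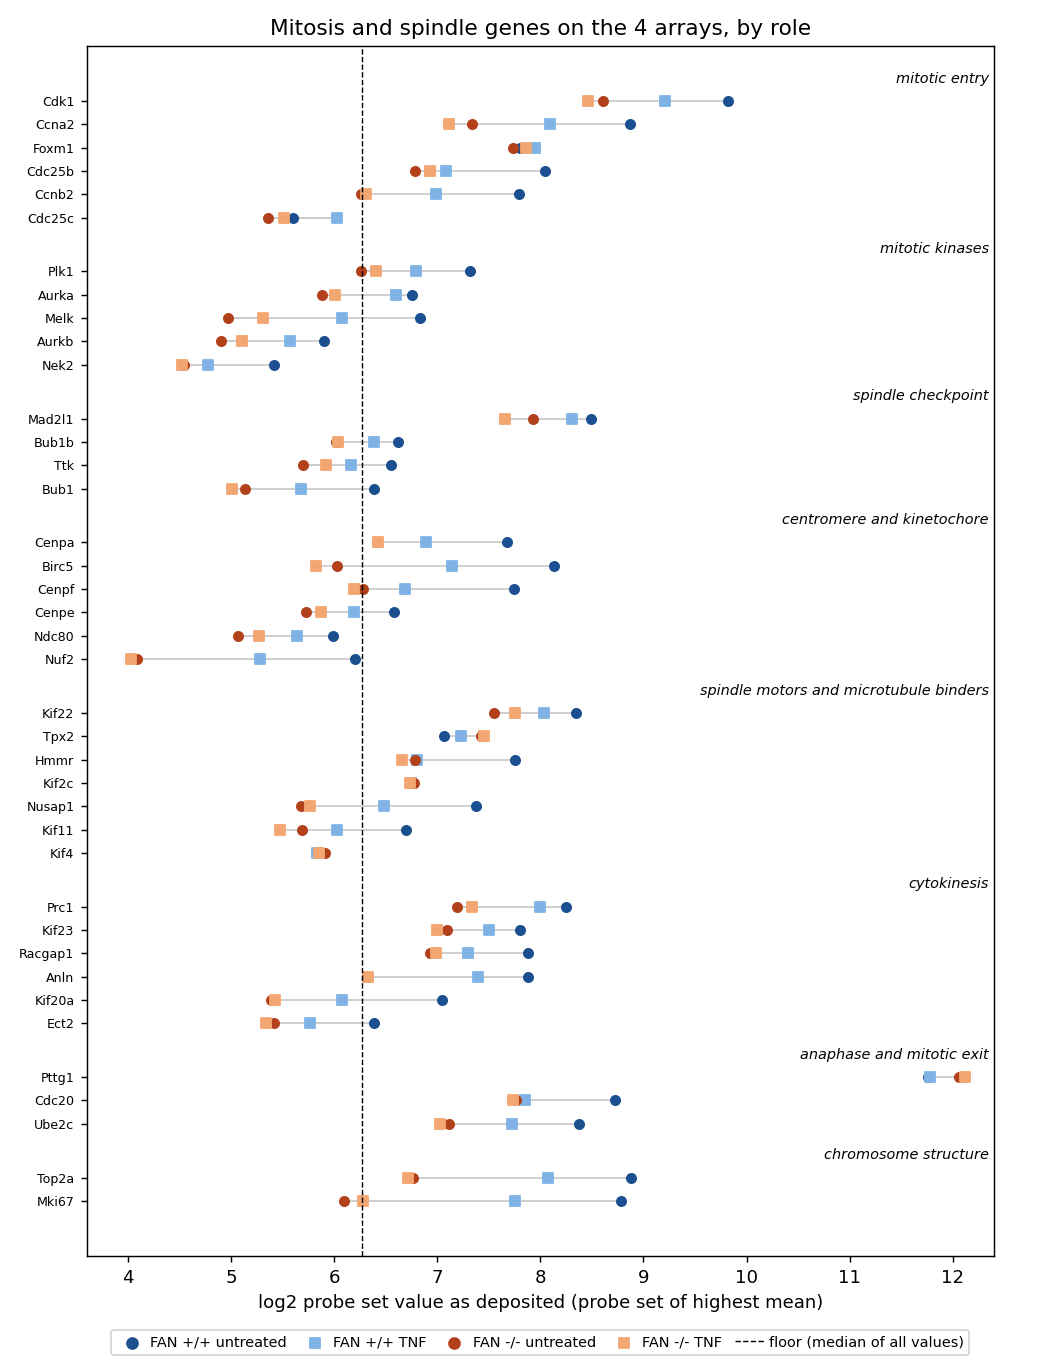
Deposited log2 value of each of the 39 members on each of the 4 arrays, grouped by role, with 1 point per array and the floor (log2 6.27) as a line. In 33 of the 39 members the untreated wild-type array is highest, the TNF-treated wild-type array next and both knockout arrays below.

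The first comparison asks how wild-type cells respond to TNF. The median deposited difference over the 39 members was -0.61 (log2, TNF minus untreated), with a range from -1.06 for Cenpf to 0.43 for Cdc25c, and 34 members were lower with TNF against 47.3% of all genes. A difference of at least 2-fold was reached by 2 members, Cenpf and Mki67. Among all genes 1.51% were that much lower as deposited, and 1.92% of genes above the floor were. At 1.5-fold, 14 of the 33 members above the floor on at least 1 array were lower, against 6.5% of genes. Members above the floor on the untreated wild-type array alone could only be lower in this count. With 1 array against 1 there is no test.

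In FAN-/- cells the median deposited difference was 0.02, the members lay between -0.27 (Mad2l1) and 0.34 (Melk), and 17 of 39 were lower with TNF against 45.7% of all genes. None was 2-fold lower, as deposited (0.803% of all genes) or after the floor (1.07% of genes), and none was 1.5-fold lower after the floor (3.1% of genes). The knockout response exceeded the wild-type response, that is, was less negative or more positive, for 33 of 39 members, against 51.9% of all genes, with a median deposited gap of 0.56. After the floor, 3 members had a gap of at least 1 (Cdc25b 1.10, Cenpf 1.06 and Mki67 1.04), against 0.794% of genes. As deposited these were 4 (Cdc25b, Kif20a, Melk and Mki67), against 0.583% of all genes, and 13 of the 33 above the floor had a gap of at least 1.5-fold (3.63% of genes). The gap has no test, since 4 arrays leave no residual for it. Because many members were at or near the floor in untreated knockout cells, a lower value with TNF could be measured there for fewer of them. For 11 of the 33, both knockout values were at the floor, and their gap after the floor is the wild-type response with its sign changed.

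**Figure D3:**
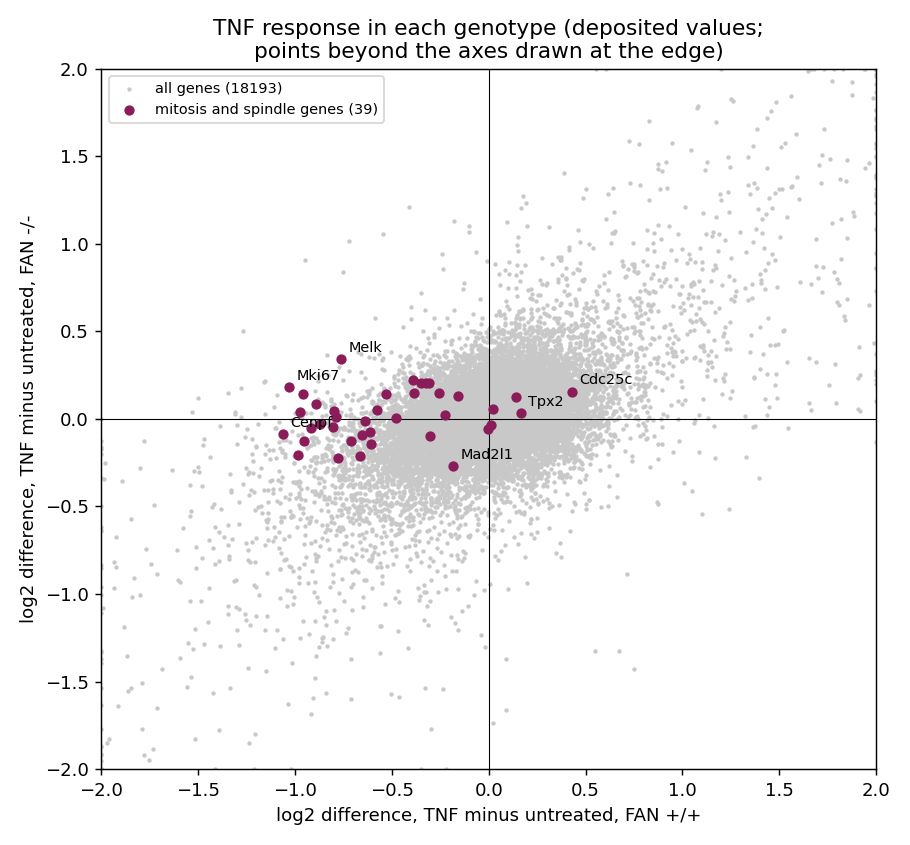
Deposited log2 difference with TNF in wild-type cells (horizontal) and in FAN-/- cells (vertical), with 1 point per member in colour over all named genes in grey; points beyond the axes are drawn at their edge. Most members lie left of 0 and near 0 vertically, with medians of -0.61 and 0.02.

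The genotype comparison without TNF gave the widest gap. The median deposited difference, knockout minus wild type, was -1.00, and 35 of 39 members were lower in the knockout against 46.7% of all genes. At least 2-fold lower were 19 of 39 members as deposited (2.32% of all genes), and 14 of the 33 above the floor on at least 1 array after the floor (2.89% of genes). With TNF the median was -0.49 and 36 of 39 were lower (45.2% of all genes), but only 5 reached 2-fold as deposited (2.12% of all genes) and 3 after the floor (2.64% of genes), namely Mki67, Top2a and Anln. At 1.5-fold the counts were 20 of 33 without TNF (7.39% of genes) and 10 of 33 with TNF (6% of genes). Of the 33, 11 passed the filter through wild-type arrays alone, with both knockout values at the floor. After the floor these could only be lower or level in the knockout, so the counts over 33 are in part set by the filter. The untreated wild-type array enters both the wild-type TNF response and the untreated genotype difference, so these are not separate observations. The genotype differences in the 2 treatments share no array. Over the 39 members they went together (Pearson r = 0.87, Spearman rho = 0.81), while the TNF responses of the genotypes, which also share no array, did so less (r = 0.23, rho = 0.23). Both are descriptions over genes measured on the same arrays.

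**Figure D4:**
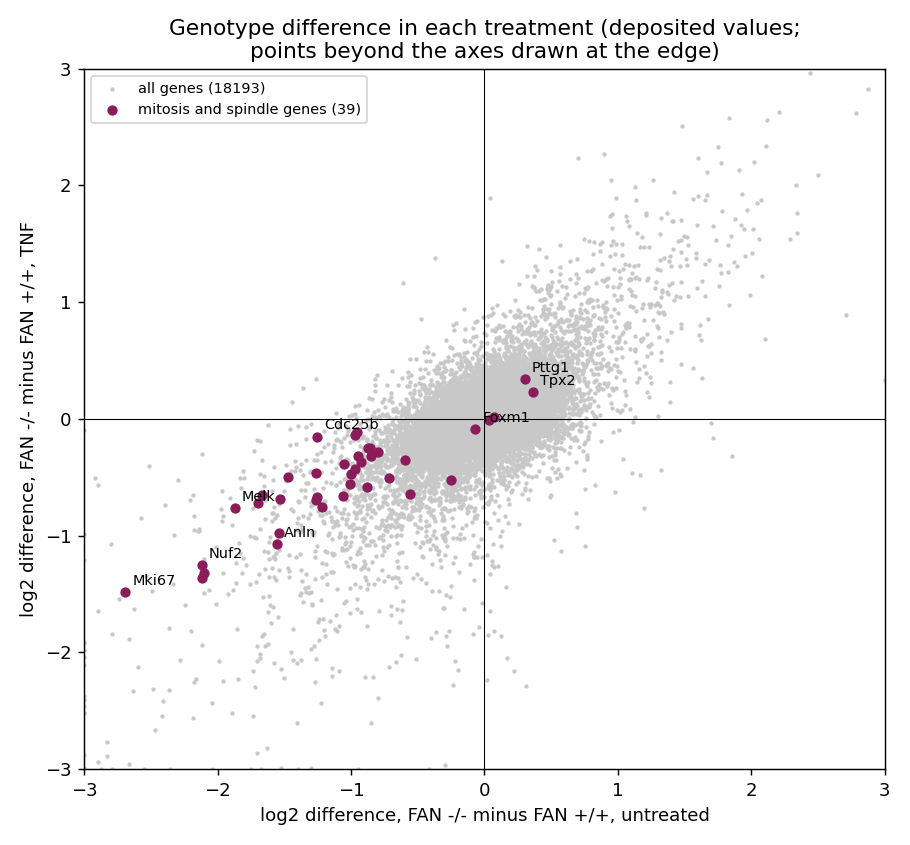
Deposited log2 difference between knockout and wild type without TNF (horizontal) and with TNF (vertical), with 1 point per member in colour over all named genes in grey; points beyond the axes are drawn at their edge. Members lie mostly below 0 on both axes, with medians of -1.00 and -0.49, and Mki67 and Top2a are among the lowest on both.

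An additive limma model gave the test that the arrays allow, with genotype and TNF as terms and 1 residual degree of freedom. It was fitted to the 11817 genes with 2 or more arrays above the floor, among them 26 members. Between the genotypes 7 of the 26 were lower in the knockout at an adjusted p under 0.05 (Ccna2, Cdk1, Prc1, Anln, Ube2c, Mki67 and Top2a) and 0 were higher, against 3.67% of all genes lower and 2.94% higher. The count of 7 became 0 without the TNF term, 2 with the floor at the 70th percentile and 17 with each array centred on its median. At an unadjusted p under 0.05, 2 of the 26 were higher in the knockout (Pttg1 and Tpx2), against 11.2% of genes. For TNF over both genotypes limma called 0 of the 26 in either direction, with a smallest adjusted p of 0.236. At an unadjusted p under 0.05, 1 member was lower with TNF against 10.6% of genes and 0 were higher against 8.2%, and among all genes 1.14% fell and 1.57% rose (518 fell and 405 rose, in place of 135 and 186, when each array was centred on its median). In this model a TNF difference present in 1 genotype alone counts in part as error. The members in the fit had to be above the floor on some arrays, so their count does not stand for all 39. Aurka, Bub1b, Birc5 and Nusap1 entered through their wild-type arrays, with both knockout values at the floor, and none of these 4 is among the 7.

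Cell type markers are given beside the genotype result. The summed signal of the 10 fibroblast markers was 112398 and 112707 on the wild-type arrays and 97278 and 84352 on the knockout arrays, untreated and with TNF. In each treatment 7 of the 10 were lower and 3 higher in the knockout, against 46.7% of all genes lower without TNF and 45.2% with it. In limma 3 of the 10 were lower (Pdgfra, Dcn and Lum) and 0 higher, against 3.67% and 2.94% of all genes. The sums hide wide gaps in these 3. Lum measured 12.75 and 13.42 in wild type and 8.78 and 7.45 in the knockout. Dcn measured 12.65, 13.32, 11.51 and 11.19 in the same order, and Pdgfra 10.89, 11.43, 9.46 and 9.62. The 9 macrophage markers summed to 744 and 1205 in wild type and 1513 and 1061 in the knockout, so the genotypes overlapped. Without TNF, 8 of the 9 were higher in the knockout as deposited and 1 lower, against 9650 of all 18193 genes higher. Of these 9, 5 were under the floor on all arrays, where values have no reliable order, and the 4 above it were all higher. Lyz2 was 3.28-fold and Csf1r 2.46-fold higher, while with TNF they differed by -0.16 and 0.03. Endothelial markers summed to between 378 and 428 and epithelial markers to between 850 and 923 over the 4 arrays. Their part in the result was not tested.

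Of the 6 measured genes of mitotic entry, 5 were lower on both knockout arrays than on both wild-type arrays. The 5 include Cdc25c, which was under the floor on all arrays, where values have no reliable order. For this order the share of all genes is 19.7%, here and in the role groups that follow. Ccna2, cyclin A2, which partners Cdk2 and Cdk1, measured 8.87 and 8.09 in wild-type cells, untreated and with TNF, and 7.33 and 7.11 in the knockout. Cdk1, the kinase that starts mitosis, measured 9.82 and 9.21 in wild type and 8.60 and 8.46 in the knockout. Ccnb2, cyclin B2, measured 7.79 and 6.99 in wild type and 6.26 and 6.30 in the knockout. All 3 had separate genotypes, with the TNF-treated wild type in between. TNF went with values 1.72-fold (Ccna2), 1.52-fold (Cdk1) and 1.74-fold (Ccnb2) lower in wild-type cells, and with differences of -0.22, -0.14 and 0.04 in knockout cells. The genotype difference over both treatments was -1.26 ± 0.17 for Ccna2 (SE; limma, adjusted p = 0.030) and -0.98 ± 0.15 for Cdk1 (adjusted p = 0.039). For Ccnb2, adjusted p was 0.064.

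Cdc25b, a phosphatase that removes the inhibitory phosphates of Cdk1, measured 8.04 and 7.08 in wild type and 6.79 and 6.93 in the knockout. It was 1.94-fold lower with TNF in wild-type cells and 0.14 higher on the log2 scale in knockout cells. Its genotype difference was 2.39-fold without TNF and 1.11-fold with it, so the genotypes were nearly level once the wild type had TNF (adjusted p = 0.22). Cdc25c, a phosphatase of the same family, stayed under the floor on all arrays. Foxm1, the transcription factor that activates many of these genes, differed little over the arrays, at 7.80, 7.95, 7.73 and 7.86 in wild type untreated, wild type with TNF, knockout untreated and knockout with TNF (genotype adjusted p = 0.705). Of its other Foxm1 probe sets, 1 above the floor on all arrays was lower in the knockout, at 7.43, 7.39, 7.01 and 7.14 in the same order. Another, above the floor on the wild-type arrays alone, measured 6.27, 6.33, 5.82 and 6.10. The last, under the floor on all arrays, measured 3.43, 3.56, 3.37 and 3.24. Foxm1 and Cdc25c fell outside the rule for values given in full and were picked out once their values had been seen.

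The deposited values of all 5 mitotic kinases were lower on both knockout arrays than on both wild-type arrays, but Aurkb and Nek2 were under the floor throughout, and Melk on all arrays but 1. Plk1, the polo-like kinase that acts from mitotic entry to cytokinesis, measured 7.32 and 6.79 in wild type and 6.26 and 6.40 in the knockout. It was at least 2.07-fold lower in untreated knockout cells and 1.31-fold lower with TNF (limma, adjusted p = 0.104). Melk, a kinase abundant in dividing and progenitor cells, measured 6.84 and 6.07 in wild type and 4.96 and 5.31 in the knockout. All but the first of its values were under the floor. Aurka, the centrosomal Aurora kinase, measured 6.76 and 6.60 in wild type and 5.88 and 6.01 in the knockout, so only the wild-type arrays were above the floor. Aurkb is the Aurora kinase of the chromosomal passenger complex, and Nek2 splits the centrosomes.

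The 4 spindle checkpoint genes were also lower on both knockout arrays, by -0.56 to -1.25 without TNF as deposited (median -0.73). After the floor these differences were -0.12 to -0.56 (median -0.32), with both knockout values of Bub1, Bub1b and Ttk at the floor. Mad2l1, the checkpoint protein that holds Cdc20, measured 8.49 and 8.30 in wild type and 7.93 and 7.66 in the knockout. Its TNF differences were small in both genotypes, -0.18 and -0.27, and its genotype difference was -0.60 ± 0.11 (SE; limma, adjusted p = 0.059). Bub1b, the BubR1 kinase-like protein of the same checkpoint, measured 6.61 and 6.39 in wild type and 6.02 and 6.04 in the knockout. Ttk, the Mps1 kinase that starts the checkpoint signal, measured 6.55 and 6.16 in wild type and 5.69 and 5.92 in the knockout. Bub1b crossed the floor between genotypes, and Ttk was above it on the untreated wild-type array alone. Bub1, the kinase that recruits other checkpoint proteins to kinetochores, was above the floor only on the untreated wild-type array, with 6.38.

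Of the 6 centromere and kinetochore genes, Cenpa, Cenpf and Birc5 were highest in untreated wild-type cells, next with TNF and lowest in the knockout, and the other 3 were mostly under the floor. Cenpa, the histone variant that marks centromeres, measured 7.68 and 6.89 in wild type and 6.42 and 6.43 in the knockout. Cenpf, a large kinetochore protein made in G2, measured 7.75 and 6.68 in wild type and 6.27 and 6.19 in the knockout. Birc5, survivin, a subunit of the chromosomal passenger complex, measured 8.13 and 7.15 in wild type and 6.03 and 5.83 in the knockout. For each of the 3 genes both knockout values lay at or near the floor. The wild-type TNF differences were 1.73-fold, 2.09-fold and 1.98-fold lower. Without TNF the knockout was 2.40-fold lower for Cenpa, 2.77-fold for Cenpf and at least 3.63-fold for Birc5. With limma none of these genotype differences passed (adjusted p = 0.097, 0.126 and 0.054). Ndc80 and Nuf2, which join in the complex that grips microtubules, were under the floor on all arrays. Cenpe, a kinetochore motor, was above the floor on 1 array.

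The spindle motors and microtubule binders were the least uniform role group, with 4 of 7 genes lower on both knockout arrays than on both wild-type arrays. Kif22, a chromosome-arm kinesin, measured 8.34 and 8.04 in wild type and 7.55 and 7.75 in the knockout. Its other probe sets were under the floor on all arrays. Between genotypes, without and with TNF, 1 of them differed by -0.17 and -0.05 and the other by -1.29 and -0.51. Hmmr, a hyaluronan receptor that also binds spindle microtubules, measured 7.75 and 6.80 in wild type and 6.78 and 6.66 in the knockout. Nusap1, which bundles spindle microtubules, measured 7.37 and 6.48 in wild type and 5.67 and 5.76 in the knockout. Hmmr was high on the untreated wild-type array alone: its genotype difference was 1.96-fold without TNF and -0.14 on the log2 scale with it. Nusap1 was 1.85-fold lower with TNF in wild-type cells and at least 2.15-fold lower in untreated knockout cells. Kif11, the kinesin that pushes spindle poles apart, was above the floor on the untreated wild-type array only.

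The other 3 motors and binders did not share the order. Kif2c, a microtubule-depolymerising kinesin, measured 6.73 and 6.74 in wild type and 6.77 and 6.74 in the knockout by its probe set of highest mean. Tpx2, which activates Aurora A on the spindle, measured 7.06 and 7.22 in wild type and 7.42 and 7.45 in the knockout. Kif4, a chromosome-associated kinesin, was level under the floor, between 5.84 and 5.91. For Kif2c and Tpx2 the genotype direction differed between probe sets. Another Kif2c probe set measured 6.85, 6.49, 6.09 and 6.13 on the arrays in the order used above, and 1 more measured 6.59, 5.77, 5.18 and 5.30, both with the order of the rest of the set. Of the other Tpx2 probe sets, 1 above the floor on all arrays measured 6.75, 6.81, 6.44 and 6.63, lower in the knockout, and another measured 6.84, 7.15, 7.36 and 7.02. The last, under the floor, measured 5.92, 5.47, 5.11 and 5.70. Tpx2 and Kif4 were added once their values had been seen.

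The deposited values of all 6 cytokinesis genes were highest in untreated wild-type cells and lowest in the knockout, with Kif20a and Ect2 under the floor on the other 3 arrays. Anln, anillin, the scaffold of the contractile ring, measured 7.88 and 7.40 in wild type and 6.32 and 6.33 in the knockout. Prc1, which bundles the microtubules of the central spindle, measured 8.25 and 8.00 in wild type and 7.19 and 7.34 in the knockout. Racgap1, part of the centralspindlin complex, measured 7.88 and 7.30 in wild type and 6.93 and 6.98 in the knockout. Without TNF the genotype gap was wider than the wild-type treatment gap for all 3. With TNF it was wider for Anln and Prc1 but not for Racgap1 (-0.32 against -0.58). Anln was 2.94-fold lower in the knockout without TNF and 2.10-fold lower with it, and its limma difference was -1.31 ± 0.15 (SE; adjusted p = 0.022). Prc1 was 2.09-fold and 1.58-fold lower, with a limma difference of -0.86 ± 0.15 (adjusted p = 0.046). Kif20a, a central spindle kinesin, had the largest wild-type TNF difference of the group as deposited, from 7.05 to 6.07, and measured 5.38 and 5.42 in the knockout. Kif23, the motor partner of Racgap1, had an adjusted p of 0.058 between genotypes, and Ect2, the exchange factor that Racgap1 recruits, was above the floor on the untreated wild-type array only.

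Of the 3 genes of anaphase and mitotic exit, 2 were lower on both knockout arrays. Cdc20, the activator of the anaphase-promoting complex, measured 8.72 and 7.85 in wild type and 7.76 and 7.74 in the knockout. Ube2c, the ubiquitin-conjugating enzyme of that complex, measured 8.38 and 7.72 in wild type and 7.12 and 7.03 in the knockout. Pttg1, securin, which holds separase inactive until anaphase, measured 11.76 and 11.78 in wild type and 12.06 and 12.12 in the knockout. These 3 genes behaved in 3 ways. Cdc20 was 1.83-fold lower with TNF in wild-type cells, and then differed from the knockout by -0.11. Ube2c kept a genotype gap in both treatments, 2.40-fold and 1.62-fold, with a limma difference of -0.98 ± 0.17 (SE; adjusted p = 0.0497). Pttg1 was higher in the knockout in both treatments, by 0.30 and 0.34, which did not pass (0.32 ± 0.08, adjusted p = 0.094), and it was level between treatments. The Pttg1 probe set carries the suffix _s_at, which marks probes that can match transcripts of several genes. The probe sets used for Prc1 and Nek2 carry it too, and those used for Kif22, Aurkb and Cdc25c carry the suffix _x_at. Another Pttg1 probe set with neither suffix, above the floor on all arrays, was also higher in the knockout, by 0.19 without TNF and 0.16 with it. The last Pttg1 probe set, also above the floor on all arrays, differed by -0.06 and 0.14. The other Prc1 probe set was lower in the knockout, with differences of -1.37 and -0.37.

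Both genes of chromosome structure had wide genotype gaps. Mki67, the Ki-67 protein that coats mitotic chromosomes and is a common proliferation marker, measured 8.78 and 7.75 in wild type and 6.09 and 6.27 in the knockout. Top2a, the topoisomerase that untangles chromosomes, measured 8.88 and 8.08 in wild type and 6.76 and 6.72 in the knockout. Both separated the genotypes by more than the treatments. Mki67 was 2.04-fold lower with TNF in wild-type cells, at least 5.72-fold lower in the knockout without TNF and 2.79-fold lower with it (limma -2.00 ± 0.27, SE; adjusted p = 0.028). Top2a was 1.74-fold lower with TNF in wild-type cells, 4.34-fold lower in the knockout without TNF and 2.57-fold lower with it (limma -1.74 ± 0.21, SE; adjusted p = 0.023). In knockout cells the Top2a difference with TNF was -0.05, and Mki67 lay at the floor without TNF and about there with it (deposited difference 0.18).

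Of the 33 members above the floor on at least 1 array, 18 were above it on all 4, and 6 members (Cdc25c, Aurkb, Nek2, Ndc80, Nuf2 and Kif4) reached it on none. The 14 members given mainly by range (the 6 just named with Foxm1, Aurka, Bub1, Cenpe, Kif11, Tpx2, Kif23 and Ect2) had deposited differences of -0.92 to 0.43 with TNF in wild type and -0.21 to 0.20 in the knockout. Their genotype differences were -2.12 to 0.36 without TNF and -1.25 to 0.23 with it.

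Probe sets of the same gene allow a further reading on the same arrays. Of the 39 members, 25 have several probe sets and 14 have 1. The second probe set, by mean, had the same sign as the first for 16 of 25 members in the wild-type TNF response, 20 of 25 in the genotype difference without TNF and 19 of 25 in that with TNF. Its medians were smaller, -0.16 against -0.39 for the wild-type response and -0.30 against -0.95 for the genotype difference without TNF. Many second probe sets are low: of the 85 member probe sets, 49 were above the floor on at least 1 array. Of those 49, 42 had both knockout arrays below both wild-type arrays, against 24% of all genes above the floor, taken at 1 probe set per gene. Probe sets above the floor on wild-type arrays alone have this order through the filter itself, so the 42 are no separate support. Top2a shows the limit, since its other probe sets, 1 near and 1 under the floor, measured 6.21, 6.26, 6.11 and 6.20, and 4.87, 4.87, 4.84 and 4.82.

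**Figure D5:**
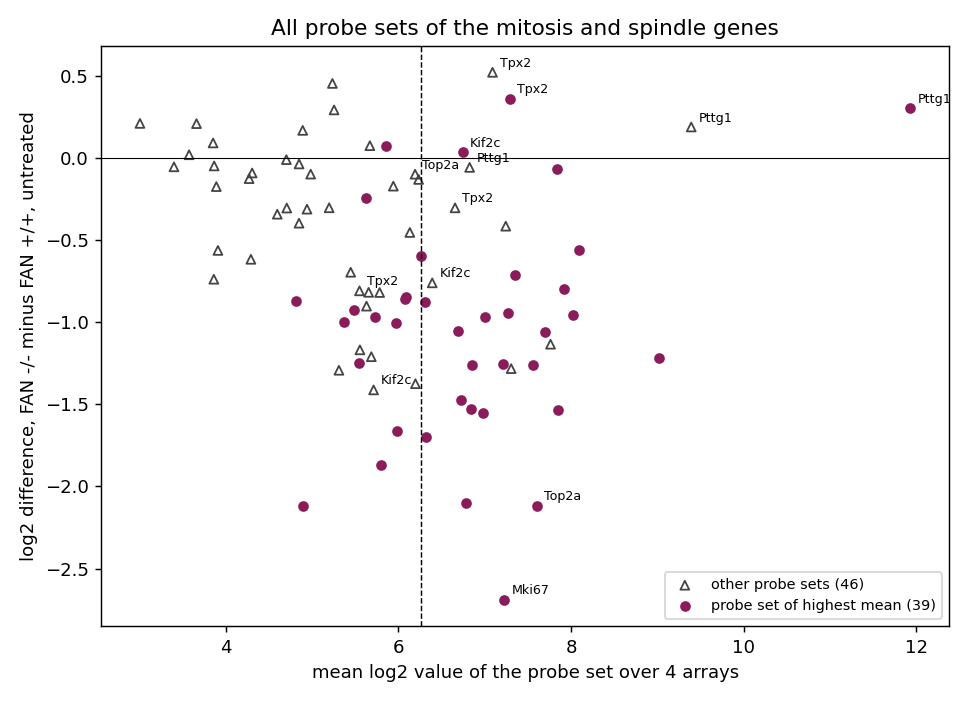
Deposited log2 difference between knockout and wild type without TNF (vertical) against the mean log2 value over the 4 arrays (horizontal) for all 85 probe sets of the members, with filled points for the probe set of highest mean of each gene, open triangles for the others and the floor as a dashed line. Probe sets right of the floor lie mostly below 0, and those left of it closer to 0, while both Kif2c and Tpx2 have probe sets on either side of 0.

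The differences were also set beside the promoter motifs, as a description with no test. The 20 members with both motifs in a window had a median deposited difference of -0.61 with TNF in wild type and -0.99 between genotypes without TNF. The 13 other measured members with a window had medians of -0.64 and -1.25. Neither motif stood in the windows of Birc5, Mad2l1, Melk, Nuf2, Nusap1 and Pttg1, whose medians were -0.83 and -1.78. Of these 6, Nuf2 was under the floor on all arrays and Melk on 3, Birc5 and Nusap1 were at least 3.63-fold and 2.15-fold lower in the untreated knockout, and Pttg1 was higher in the knockout.

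Other mitotic genes, not among the members, moved the same way but less uniformly. In a list of 65 further mitotic genes the median deposited differences were -0.33 with TNF in wild type, 0.03 with TNF in the knockout, -0.46 between genotypes without TNF and -0.17 with TNF. Both knockout arrays were below both wild-type arrays for 39 of 65, against 19.7% of all genes. In limma, 4 of the 45 tested were lower in the knockout (Ncapd2, Smc4, Pbk and Plk4), against 3.67% of all genes. Higher in the knockout was 1 (Gtse1), against 2.94% of all genes, and 1 fell with TNF (Smc4), against 1.14%. Ncapd2, a condensin subunit, measured 8.47 and 7.57 in wild type and 6.83 and 6.71 in the knockout (-1.25 ± 0.21, SE; adjusted p = 0.046). Smc4, the condensin core ATPase, measured 10.34 and 9.60 in wild type and 9.43 and 8.64 in the knockout. Unlike any member, Smc4 passed for both terms, with -0.93 ± 0.10 for genotype (SE; adjusted p = 0.020) and -0.77 ± 0.10 for TNF (adjusted p = 0.044), and was lower with TNF in both genotypes. Gtse1, a G2 and S phase protein that binds microtubules and p53, measured 8.75 and 8.52 in wild type and 9.44 and 9.76 in the knockout. Cdca8, borealin of the passenger complex, measured 8.35 and 7.58 in wild type and 7.04 and 7.13 in the knockout, while Spc25, of the Ndc80 complex, measured 8.55, 7.81, 8.44 and 8.29 in the same order and was low in TNF-treated wild-type cells only.

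DNA replication genes, which are switched on at the start of S phase, showed the same direction between genotypes. Over 33 of them the median deposited differences were -0.31 with TNF in wild type, 0.01 in the knockout, -0.85 between genotypes without TNF and -0.44 with TNF. For 27 of 33 both knockout arrays were below both wild-type arrays, against 19.7% of all genes. In limma 8 of 27 tested were lower in the knockout, against 3.67% of all genes: Mcm3, Mcm5, Mcm6, Pcna, Cdt1, Tk1, Prim1 and Uhrf1. Mcm5, a subunit of the replicative helicase, differed by -1.63 ± 0.15 (SE; adjusted p = 0.015) and Tk1, thymidine kinase, by -1.47 ± 0.14 (adjusted p = 0.016). By the rule on wild-type TNF differences the list's named genes are Rrm2, Lig1, Mcm7 and Mcm4. Rrm2, a ribonucleotide reductase subunit, measured 10.32 and 9.31 in wild type and 10.16 and 9.60 in the knockout, with near-level untreated genotypes. Lig1, a DNA ligase, measured 9.11 and 8.27 in wild type and 7.73 and 7.89 in the knockout, and Mcm4 measured 9.19, 8.53, 8.21 and 8.04. Mcm7 measured 11.22, 10.53, 10.93 and 10.94, lowest in TNF-treated wild-type cells. The replication windows differed from the mitotic ones in promoter letters: 9.09% of their 33 windows held a CHR core and 57.6% a CCAAT box, against 55.4% and 67.7% of the 65 windows of the further mitotic genes.

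The list of 33 cell cycle regulators did not share the shift. Its median deposited differences were -0.11 with TNF in wild type, -0.11 in the knockout, -0.09 between genotypes without TNF and 0.05 with TNF. At an unadjusted p under 0.05 in limma, 4 of 29 tested were lower in the knockout, near the share of all genes (1574 of 11817). After adjustment 0 were lower and 3 higher, against 3.67% and 2.94% of all genes. The 3 restrain the cycle or are p53 targets. Rb1, the retinoblastoma protein, measured 9.04 and 9.21 in wild type and 10.05 and 9.89 in the knockout (0.84 ± 0.13, SE; limma, adjusted p = 0.036). Cdkn1a, the Cdk inhibitor p21, measured 12.77 and 12.65 in wild type and 13.45 and 13.25 in the knockout (0.64 ± 0.07, adjusted p = 0.020). Ccng1, cyclin G1, measured 12.49 and 12.52 in wild type and 13.19 and 13.07 in the knockout (0.63 ± 0.08, adjusted p = 0.025). Among those 3 the genotypes did not overlap and TNF made little difference. Cdkn1b, the Cdk inhibitor p27, fell with TNF, from 9.52 to 8.64 in wild type and from 9.06 to 8.02 in the knockout (-0.96 ± 0.12, adjusted p = 0.036). Cdkn1c, the inhibitor p57, measured 10.22 and 8.29 in wild type and 9.40 and 8.58 in the knockout, and Ccnd3, cyclin D3, measured 11.72, 10.77, 11.34 and 10.73. E2f1, an activator of S phase genes, measured 9.26, 8.44, 8.73 and 8.61, and the B-Myb gene Mybl2 was under the floor on all arrays.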

How the data were processed

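RNA of MEFs was measured on 4 arrays. The deposited values are taken as log2 from their range. MAS5 is named, without a version, per the submitters' processing notes. The summary method, normalization, filters and build are not given in the sources used here. Probe sets were named through the platform annotation: 64 are controls, 34945 name 1 gene, 932 several and 9160 none. Entrez identifiers of 34741 matched the RefSeq table (GRCm38.p6), with 0 symbols changed. A gene is its probe set of highest mean. Values were floored at the 50th percentile. Promoters came from RefSeq (GRCm38.p6).

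Comparisons of 1 array with 1 have no test. limma 3.58.1 (R 4.3.3) fitted genotype and TNF additively (lmFit, eBayes with trend, prior degrees of freedom 3.52, Benjamini-Hochberg over 11817 genes) and was checked on simulated data. Arrays have no depth in reads, and their number limits the precision. Values in full were given, per role, for the member of highest mean and the 2 largest wild-type TNF differences, for members past limma or with responses of opposite sign, and for up to 4 genes of each other list. Genes past limma in those lists, Foxm1, Cdc25c, Tpx2, Kif4 and Mybl2 were added once their values had been seen. The members and lists were chosen with earlier results of these data known. Alternatives were other floors, centring, quantile normalization, the mean of probe sets, other limma settings, a 1.5-fold threshold and a narrower motif window.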

Additional observations from a re-analysis of the deposited data

How the results depend on the processing

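The genotype and treatment calls rest on 1 array per condition. No paired analysis was possible because each condition has 1 array and the titles carry no replicate numbers, and leaving out an array would leave limma no residual degree of freedom. No called direction reversed under any alternative run, limma called 0 members for TNF under each, and both knockout arrays stayed below both wild-type arrays for 34 to 36 members. Counts of members moved as follows, against 2 members at least 2-fold lower with TNF in wild type, 3 with a higher knockout response, 14 lower in the untreated knockout, 3 lower in the TNF-treated knockout and 7 lower in limma. With the floor at the 70th percentile, which left 15 members, these were 0, 0, 3, 0 and 2. With arrays centred on their medians the wild-type count was 5 and the limma count 17 (980 genes lower in place of 434), and with quantile normalization the wild-type count was 1. With the mean of all probe sets of a gene the wild-type count was 1 and the genotype counts 9 and 1. Without a term for the other factor limma called 0 members between genotypes and 6 genes lower. The 1.5-fold threshold, chosen after seeing the data, gave 14 and 13 for the wild-type response and the response gap, and 10 for the TNF-treated genotype difference. With all 39 members as deposited, also chosen then, the TNF-treated genotype count was 5 at 2-fold and 16 at 1.5-fold. A CHR core was found for 8 genes within 100 bases before the start, against 23. The limma calls of Prc1 and Ube2c were lost with the floor at the 30th percentile (adjusted p = 0.060 and 0.066), and those of Anln, Top2a and Prc1 with the mean of probe sets (0.138, 0.198 and 0.069). Those of Mki67, Cdk1, Prc1 and Ube2c were lost with all genes and no filter (0.058, 0.061, 0.073 and 0.080). Low signal is a further limit: values under the floor have no order, and 15 of the 33 members were at it on at least 1 array. The cause of these changes was not tested.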
